A study of Mus musculus with 8 samples.

Results

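The Frizzled receptor family of the mouse, Fzd1 to Fzd10, was followed in whole kidneys of E13.5 embryos on 8 two-colour Agilent arrays. Its members were the non-control probes whose RefSeq accession belongs to 1 of the 10 Frizzled genes, which gave 10 of the 17115 named genes tested and 15 probes of 41174 on the array. All 15 were among the 39522 probes tested. Fzd2, Fzd3, Fzd5, Fzd7 and Fzd10 had 2 probes each, and Fzd1, Fzd4, Fzd6, Fzd8 and Fzd9 had 1 each. The mutant kidneys lacked HDAC1 and HDAC2 in the ureteric bud (genotype UB HDAC1,2-/-), and were set against wild type kidneys, per the labels. Both came from mice of the CD1 C57BL/6 mix, and 0.5 µg of total RNA of each was labelled with Cy3 or Cy5. The driver of the deletion is not given in the sources used here. There were 4 biological replicates, each of 1 mutant and 1 wild type RNA hybridised on 2 arrays with the dyes exchanged. The comparison asks which transcripts differ in the kidney when the bud lacks these histone deacetylases, enzymes that remove acetyl groups from histones.

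Frizzled proteins are receptors that cross the cell membrane repeatedly and bind secreted Wnt proteins through a cysteine-rich domain outside the cell. With the co-receptors Lrp5 and Lrp6 they stabilise beta-catenin, and with Vangl and Celsr proteins they orient cells within the plane of an epithelium; Dishevelled proteins relay both signals inside the cell. In the embryonic kidney, Wnt9b and Wnt11 come from the ureteric bud and Wnt4 from the mesenchyme that turns into nephrons, and mouse Fzd4 and Fzd8 act together in growth of the bud.

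The promoters of Fzd10 and Fzd4 are shown because these 2 genes hold the Frizzled probes with the smallest p. Each sequence runs from 250 bases before to 50 bases after the start site in RefSeq's annotation of GRCm38.p6, on the plus strand, with GC boxes (GGGCGG on either strand) in capitals. Fzd10 lies at chr5:128600856-128601155 and Fzd4 at chr7:89404116-89404415.
Fzd10: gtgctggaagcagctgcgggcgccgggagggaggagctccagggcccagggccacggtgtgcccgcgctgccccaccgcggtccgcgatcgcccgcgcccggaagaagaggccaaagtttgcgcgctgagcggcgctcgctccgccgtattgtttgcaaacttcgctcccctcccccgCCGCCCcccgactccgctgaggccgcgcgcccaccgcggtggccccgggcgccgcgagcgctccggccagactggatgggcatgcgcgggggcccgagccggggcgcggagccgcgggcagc
Fzd4: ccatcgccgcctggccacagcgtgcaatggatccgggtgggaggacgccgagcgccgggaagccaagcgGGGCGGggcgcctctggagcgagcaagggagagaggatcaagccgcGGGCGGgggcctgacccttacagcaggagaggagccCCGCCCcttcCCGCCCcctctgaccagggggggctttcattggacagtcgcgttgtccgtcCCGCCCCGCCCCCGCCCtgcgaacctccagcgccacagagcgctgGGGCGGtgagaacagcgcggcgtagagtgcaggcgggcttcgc
The Fzd10 window held 1 GC box and 45 CpG dinucleotides and was 77.7% G or C. The Fzd4 window held 8 GC boxes and 32 CpG dinucleotides and was 72.7% G or C. Over all 32851 promoter windows of this length the median was 52.7% G or C with 7 CpG, and 35.7% held a GC box. G and C were less frequent than in Fzd10 in 98.1% of the windows, and less frequent than in Fzd4 in 94.3%. The letters that TCF and LEF factors bind, searched on both strands as CTTTG followed by AA, AT, TA or TT, were found in neither window, against 16.9% of all windows. The TATA box, TATAAA on either strand, was also found in neither, against 13.6% of all windows. Neighbouring GC boxes can share a base, and neither of the other motifs shares letters with a GC box here. RefSeq windows were at hand for 6 of the 10 genes, namely Fzd1, Fzd4, Fzd5, Fzd7, Fzd9 and Fzd10. Fzd2, Fzd3, Fzd6 and Fzd8 had no entry. Of the other 4 windows, that of Fzd7 held 1 TCF/LEF match and 7 GC boxes, that of Fzd5 held 10 GC boxes, that of Fzd9 held 53 CpG, and that of Fzd1 held a TATA match and was the poorest in G and C at 54%.

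Some features of the arrays bear on every value. The sign of all ratios follows the dye labels, and the authors' deposited table runs the other way. Of its 496 entries, 459 equal the sign-turned scanner mean within 0.01 (log2) and 0 equal it as labelled, and all 266 entries with 1 spot have the opposite sign. The table states no direction, so "labelled mutant" and "labelled wild type" below name the dye channels. Should that table run as mutant over wild type, each sign given here would be reversed. Hdac2, which is deleted in the bud and was measured here, had log2 ratios of 0.60, 0.60, 0.74 and -0.61 in replicates 1 to 4, labelled mutant over labelled wild type, above 0 on 6 of 8 arrays (limma adjusted p 0.757). Its labelled loss was therefore seen in 1 of 4 replicates, and the RNA of cells outside the bud is also in these samples. Hdac1 is not analysed here. Replicate 2 also stood apart. The SD of its array log2 ratios over all probes was 0.803 and 0.651, against 0.256 to 0.368 on the other 6 arrays, and limma's weight for it was 0.18 against 1.15 to 4.07 for the others. In the labelled wild type RNA of replicate 2 the deviation of probe signals from the other replicates had an SD of 0.802, against 0.429 to 0.502 in the other labelled wild type RNAs. In the labelled mutant RNA of replicate 2 that SD was 0.511, against 0.34 to 0.429 in the others. On its array with the labelled mutant in Cy5 the median signal was 272 in both channels, against 399 to 549 elsewhere. Replicate 1 agreed little with the others over the probes tested. Its ratios had Pearson correlations of -0.149, 0.0954 and 0.00901 with replicates 2, 3 and 4. Replicate 2 had 0.318 and 0.0111 with replicates 3 and 4, which had 0.413 with each other. Replicates 1 and 2 lay on slide 1 and replicates 3 and 4 on slide 2. Of the kidney markers, 20 of 20 for the ureteric bud and 12 of 12 for nephron progenitors were well above background on all arrays. So were 8 of 8 skeletal muscle and 12 of 12 macrophage markers, so this count cannot tell kidney from other tissue. Of 41174 probes, 33693 were tested when either channel had to be well above background on 8 of 8 arrays. In whole kidney RNA, fewer cells of a type and less RNA per cell cannot be told apart.

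All 15 Frizzled probes were well above background on all 8 arrays in both channels. Of all 41174 probes, 33693 were tested when either channel had to be well above background on 8 of 8 arrays. The Frizzled probes could therefore be read throughout, in the labelled mutant and in the labelled wild type. The share of all probes that did so in both channels was not computed, so no trait of the family is read from it. No probe passed the adjusted threshold of 0.05, against 0.0177% of all probes tested (7 probes), by limma's moderated test over the 4 replicate ratios with Benjamini-Hochberg adjustment. At an unadjusted p under 0.05 there were 2 of 15 probes, both above 0, against 6.01% of all probes, 3.15% higher and 2.86% lower. They were A_52_P203560 of Fzd10 and the probe of Fzd4. Over the 15 probes, 10 had a mean above 0 and 5 below it, with a median log2 ratio of 0.13, against 54% of all probes above 0 and a median of 0.02. In 4 of 4 replicates 4 probes were above 0 and 0 were below, where 10.7% of all probes were above. The signals of the 2 genotypes, not normalized between arrays, overlapped between replicates for all 15 probes. The share of all probes with such overlap was not computed, so this is not read as a trait of the family. Levels of different probes are not compared, because probes differ in how they bind.

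**Figure D1:**
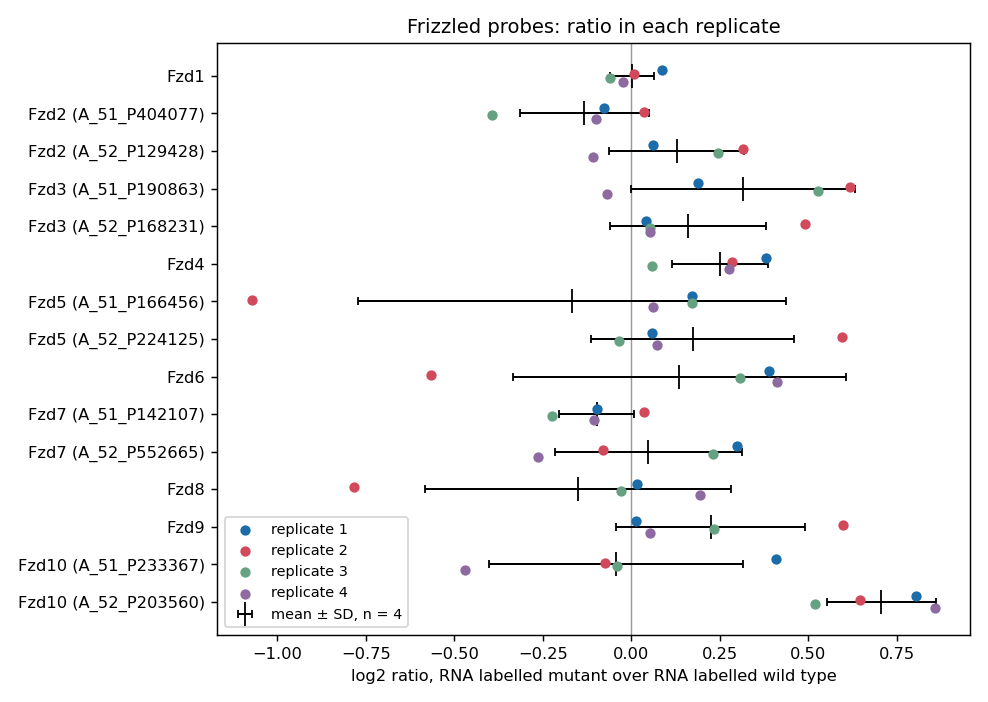
Log2 ratio (labelled mutant over labelled wild type) for the 15 Frizzled probes, with 1 point per replicate (mean of both dye orientations), the vertical tick at the mean and the bar at ± SD, n = 4. A_52_P203560 of Fzd10 stands at 0.52 to 0.86 and A_51_P166456 of Fzd5, the probe with the widest bar, has replicate 2 at -1.07 and the others between 0.06 and 0.17.

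Fzd10 is a receptor best known in human cancers such as synovial sarcoma. Its probe A_52_P203560 gave processed signals of 2213, 1726, 2492 and 2559 in the labelled mutant RNA of replicates 1 to 4, against 1268, 1103, 1740 and 1411 in the labelled wild type RNA. Within each replicate the labelled mutant was brighter, and between replicates the groups overlapped only in that 1726 lay below 1740. The log2 ratio was 0.80, 0.65, 0.52 and 0.86, with a mean of 0.71 ± 0.15 (SD, n = 4), or 1.63-fold. This was the largest mean ratio of the family, and it was above 0 on 8 of 8 arrays, as was 2.25% of all probes. By p it ranked 96 of 39522 probes (limma p 0.000471, adjusted p 0.194). The exact sign-flip permutation p was 1 in 8, the smallest that 4 replicates allow. In the authors' deposited table Fzd10 has a log2 ratio of -0.71, the sign-turned value of this probe.

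The call on this probe depended on how the arrays entered the fit. With the 8 arrays as observations and the replicate as a random block, limma's adjusted p was 0.0169, where 0.337% of all probes passed. That fit counts both hybridisations of the same 2 RNAs, with a consensus correlation of 0.299 between them, so its 8 arrays are not 8 independent samples. With replicates weighted by their array quality, limma's adjusted p was 0.0249 at a log2 ratio of 0.63, where 1.17% of all probes passed. With slide as a block the adjusted p was 0.41, while the ratio was 0.73 within slide 1 and 0.69 within slide 2. Without replicate 1, 2, 3 or 4 the ratio was 0.67, 0.73, 0.77 and 0.66, with limma's adjusted p at 0.469, 0.14, 0.903 and 0.72.

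A second probe of Fzd10, A_51_P233367, did not show the difference. Its signals were 1083, 675.3, 730.8 and 499.8 in the labelled mutant RNA, against 816.3, 710.4, 752.1 and 692.6 in the labelled wild type RNA. Replicate 1 was brighter in the labelled mutant, replicate 4 was dimmer in it, and the other 2 lay close together. The mean log2 ratio was -0.04 ± 0.36 (SD, n = 4; limma p 0.784). A_52_P203560 exceeded it by 0.40, 0.72, 0.56 and 1.33 in replicates 1 to 4, a mean difference of 0.75 ± 0.41 (SD, n = 4; exact sign-flip permutation p of 1 in 8, the smallest possible). Probe sequences were not used here, so which part of the transcript each probe reads was not compared. The sign of A_51_P233367 also turned within replicates 2 and 3 between the dye orientations, with -0.51 and 0.36 in replicate 2 and 0.37 and -0.45 in replicate 3. On A_52_P203560 the orientations differed in size but not in sign, with 0.57 ± 0.16 on arrays with the labelled mutant in Cy5 and 0.85 ± 0.16 on those with it in Cy3 (SD, n = 4 each).

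**Figure D2:**
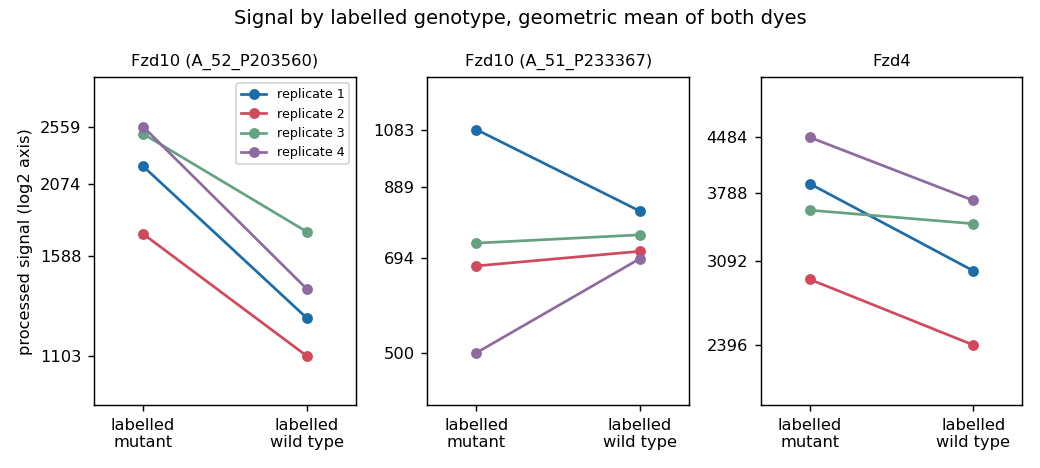
Processed signal (log2 axis, geometric mean of both dye orientations) of both Fzd10 probes and the Fzd4 probe in the RNA labelled mutant and the RNA labelled wild type, with a line joining the 2 RNAs of each replicate. All 4 lines of A_52_P203560 run down to the labelled wild type, while those of A_51_P233367 run both ways.

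Fzd4 is the receptor for the ligand Norrin in retinal vessels and also binds Wnts. Its signals were 3898, 2921, 3599 and 4484 in the labelled mutant RNA, against 2997, 2396, 3455 and 3706 in the labelled wild type RNA. The labelled mutant was brighter within each replicate, and the groups overlapped between replicates. The log2 ratio was 0.38, 0.29, 0.06 and 0.28, with a mean of 0.25 ± 0.14 (SD, n = 4), or 1.19-fold (limma p 0.0457, adjusted p 0.757; above 0 on 7 of 8 arrays). The limma p was 0.0823 with the replicate block, 0.072 with slide as a block and 0.0812 with array weights, where the ratio was 0.16. The 2 Frizzled probes at p under 0.05 under the replicate block were therefore those of Fzd10 (A_52_P203560) and Fzd3 (A_51_P190863), without Fzd4. The size moved with the processing and the dye. It was 0.37 after normexp background correction and loess (limma p 0.0016, adjusted p 0.429) and 0.21 with each array centred on its median (p 0.0707). On arrays with the labelled mutant in Cy5 the mean was 0.42 ± 0.14, and on those with it in Cy3 it was 0.08 ± 0.31 (SD, n = 4 each). Within slide 1 the ratio was 0.33 and within slide 2 it was 0.17.

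**Figure D3:**
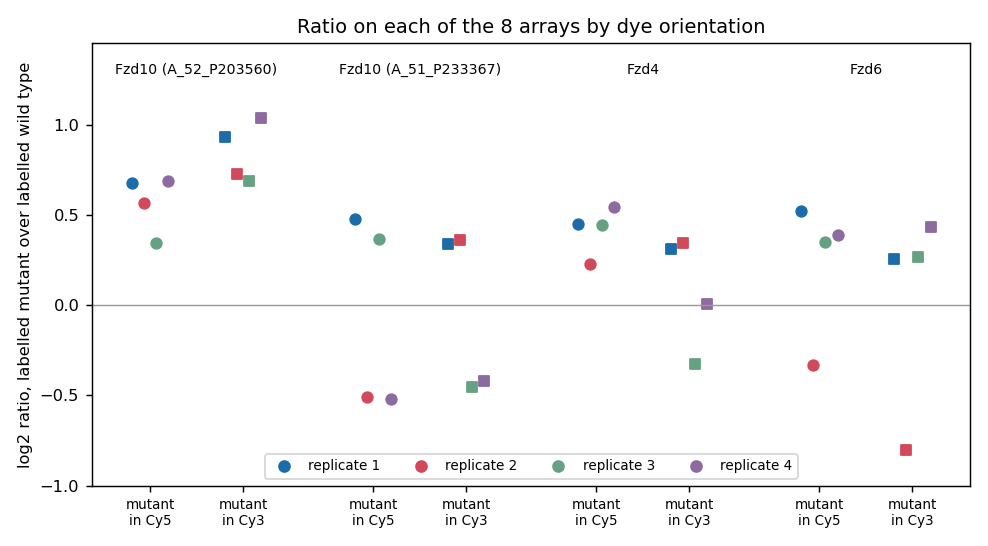
Log2 ratio of labelled mutant over labelled wild type on each of the 8 arrays for 4 Frizzled probes, split by the dye that carried the labelled mutant RNA (circles Cy5, squares Cy3), coloured by replicate. A_52_P203560 of Fzd10 is above 0 on all arrays, Fzd4 is above 0 on 7, and Fzd6 is below 0 on both arrays of replicate 2 alone.

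Fzd6, which acts with Fzd3 in planar polarity and orients hair follicles in mice, gave a result that turned on replicate 2. Its signals were 1302, 708.5, 1310 and 1032 in the labelled mutant RNA, against 995.4, 1049, 1058 and 776.4 in the labelled wild type RNA. Replicates 1, 3 and 4 were brighter in the labelled mutant, and replicate 2 was dimmer in it on both arrays. The log2 ratio was 0.39, -0.57, 0.31 and 0.41, a mean of 0.14 ± 0.47 (SD, n = 4; limma p 0.499). Without replicate 2 it was 0.37, with a limma p of 0.00337 and an adjusted p of 0.305, and 3 Frizzled probes were at p under 0.05, against 7.93% of all probes in the same fit. Within slide 1 the mean ratio was -0.09, and within slide 2 it was 0.36. Beside it stand the marks of replicate 2 given above; their part in the result was not tested.

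Fzd5, a receptor needed in the yolk sac of mice, was read by probes that opposed each other in replicate 2. A_51_P166456 had signals of 306.6, 233.9, 212 and 218.8 in the labelled mutant RNA and 272.5, 492, 188.3 and 209.7 in the labelled wild type RNA. The single high value was the labelled wild type RNA of replicate 2. The log2 ratios were 0.17, -1.07, 0.17 and 0.06, so 3 of 4 were above 0 while the mean was -0.17 ± 0.61 (SD, n = 4; limma p 0.496). A_52_P224125 of the same gene had ratios of 0.06, 0.60, -0.04 and 0.07 and a mean of 0.17 ± 0.29 (SD, n = 4; limma p 0.242), which was 0.03 without replicate 2 and 0.05 after normexp and loess. The difference, A_52_P224125 minus A_51_P166456, was -0.11, 1.67, -0.21 and 0.01 in replicates 1 to 4 (exact sign-flip permutation p 0.875). Fzd8, which works with Fzd4 in bud growth, had signals of 445.5, 400.7, 418.5 and 378.5 in the labelled mutant RNA and 440.3, 689.2, 427 and 331.1 in the labelled wild type RNA. Its ratios were 0.02, -0.78, -0.03 and 0.19, with a mean of -0.15 ± 0.43 (SD, n = 4; limma p 0.426) and 0.06 without replicate 2. Its log2 signal spread more in the labelled wild type (SD 0.44) than in the labelled mutant (SD 0.10).

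**Figure D4:**
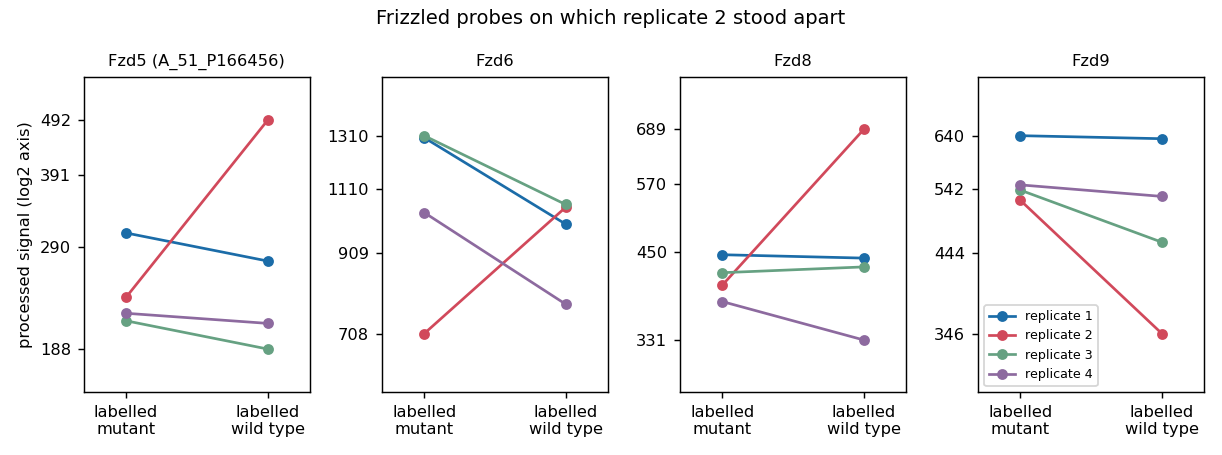
Processed signal (log2 axis, geometric mean of both dye orientations) of 4 Frizzled probes in the RNA labelled mutant and the RNA labelled wild type, with a line joining the 2 RNAs of each replicate. In replicate 2 the labelled wild type RNA is the highest for A_51_P166456 of Fzd5 and for Fzd8, and the lowest for Fzd9.

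Fzd9, in human part of the region deleted in Williams syndrome, had signals of 640.1, 523.6, 540.5 and 549.4 in the labelled mutant RNA and 634.1, 346.2, 459.8 and 530.1 in the labelled wild type RNA. Its ratios were 0.01, 0.60, 0.23 and 0.05, above 0 in 4 of 4 replicates, with a mean of 0.22 ± 0.27 (SD, n = 4; limma p 0.132). Without replicate 2 the mean was 0.10, and after normexp and loess it was 0.05. On the 2 arrays of replicate 2 the ratios were 1.01 and 0.19. Fzd3, a planar polarity receptor that guides axons in mice, was read by 2 probes. A_51_P190863 had ratios of 0.19, 0.62, 0.53 and -0.07 (mean 0.32 ± 0.32, SD, n = 4, limma p 0.0674), and a mean of 0.20 after normexp and loess. Its limma p was 0.0436 under the replicate block and 0.0126 with array weights. In those fits 3016 and 7457 of 39522 probes were at p under 0.05. A_52_P168231 had 0.04, 0.49, 0.05 and 0.05 (mean 0.16 ± 0.22, SD, n = 4; limma p 0.222), where replicate 2 alone stood out. The mean of that probe was 0.05 without replicate 2 and 0.09 after normexp and loess. The 2 probes of Fzd3 differed by 0.16 ± 0.24 (SD, n = 4; exact sign-flip permutation p 0.25).

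Fzd1, Fzd2 and Fzd7, closely related receptors that act together in mouse palate and heart formation, had no probe at an unadjusted p under 0.05 in the unweighted fit of the scanner ratios. With array weights, A_51_P404077 of Fzd2 stood at -0.27 (limma p 0.0145, adjusted p 0.166) and A_51_P142107 of Fzd7 at -0.17 (limma p 0.0332, adjusted p 0.223). In that fit 7457 of 39522 probes were at p under 0.05, against 2375 in the unweighted fit. Fzd1 had signals from 7732 to 10860 in the labelled mutant RNA and from 7692 to 11250 in the labelled wild type RNA. Its ratios were 0.09, 0.01, -0.06 and -0.02 and its mean was 0.00 ± 0.06 (SD, n = 4; limma p 0.977), the narrowest spread of the family. The Fzd2 probes went opposite ways, A_51_P404077 with a mean of -0.13 ± 0.18 (limma p 0.266) and A_52_P129428 with 0.13 ± 0.19 (limma p 0.286; SD, n = 4 each). After normexp and loess A_51_P404077 was at -0.24 (limma p 0.00995, adjusted p 0.663). The Fzd7 probes stood at -0.10 ± 0.11 for A_51_P142107 (limma p 0.342) and 0.05 ± 0.26 for A_52_P552665 (limma p 0.724; SD, n = 4 each). Their ratios in replicates 1 to 4 were -0.10, 0.04, -0.22 and -0.11 for A_51_P142107, and 0.30, -0.08, 0.23 and -0.26 for A_52_P552665. In order of mean ratio the family ran from Fzd10 (A_52_P203560) over Fzd3 (A_51_P190863) and Fzd4 down to Fzd5 (A_51_P166456). The replicate ranges of neighbours in that order overlapped, also those of the first 2, since Fzd3 reached 0.62 and Fzd10 began at 0.52. In 4 of the 15 probes (A_51_P404077 of Fzd2, A_51_P166456 of Fzd5, Fzd6 and A_51_P142107 of Fzd7) replicate 2 alone had its sign, against 13% of all probes.

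**Figure D5:**
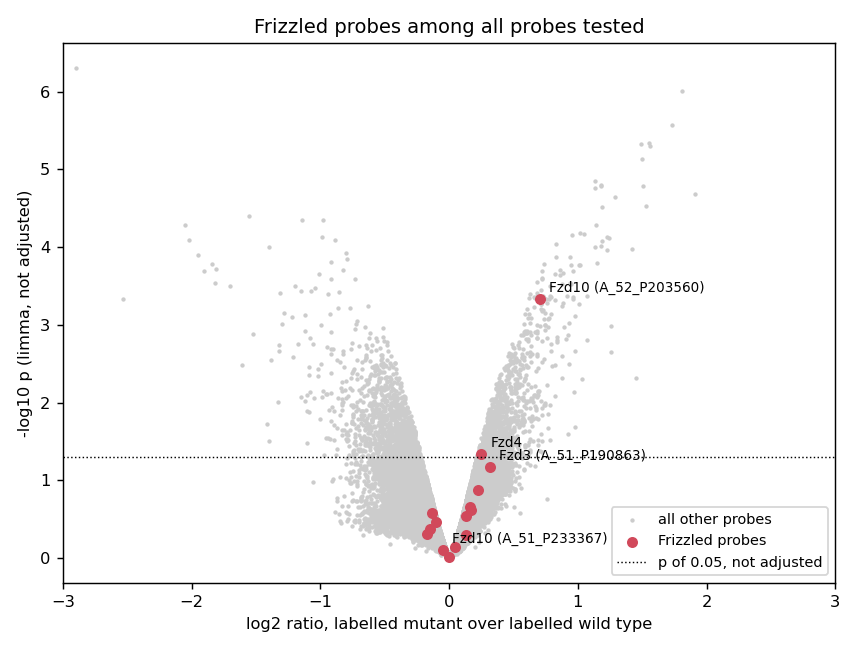
Mean log2 ratio (labelled mutant over labelled wild type) against -log10 of the unadjusted limma p for all 39522 probes tested in grey and the 15 Frizzled probes in red; the dotted line is p of 0.05. A_52_P203560 of Fzd10 lies at 0.71 and ranks 96 by p, Fzd4 lies just above the line, and the other 13 Frizzled probes lie below it.

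Probes of other genes with the array pattern most like each of these were sought by the root mean square difference of log2 ratios over the 8 arrays. For A_52_P203560 of Fzd10 these were Thy1 (0.171), Pde8b (0.185) and Krtcap3 (0.19) of 24690 probes compared, with mean log2 ratios of 0.61, 0.72 and 0.72. For A_51_P233367 they were Gclc (0.158), Celf1 (0.164) and Zfr (0.168). For Fzd4 they were Paip1 (0.144), Jag1 (0.156) and Rrs1 (0.168) of 24691 probes compared. The 2 Fzd10 probes shared no gene among these. Their mean difference of 0.75 left no room for a shared gene at such distances, so this adds nothing to their disagreement.

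Among the other genes of the pathway, each read by its brightest probe, ligands held 5 of 22 genes at p under 0.05. Wnt antagonists held 4 of 15, a larger share. Of 22 ligand and secretion genes, 13 were above 0 and 9 below (median log2 ratio 0.15). At p under 0.05 there were 5 higher and 0 lower, against 4.14% of the brightest probes of all named genes that were higher and 1.95% that were lower. Wnt10a had ratios of 0.62, 0.86, 0.56 and 0.86 (mean 0.73 ± 0.16, SD, n = 4; limma p 0.000423, adjusted p 0.194). Wnt2 averaged 0.52 ± 0.26 and Wnt4, which turns mesenchyme into nephron epithelium, 0.49 ± 0.30 (limma p 0.00635 and 0.0119; SD, n = 4 each). Wnt11, a bud tip ligand, averaged 0.42 ± 0.20 (limma p 0.00907), and Ndp, which encodes Norrin, the ligand of Fzd4, 0.45 ± 0.33 (limma p 0.021; SD, n = 4 each). All 5 were above 0 on 8 of 8 arrays, and none passed the adjusted threshold. Ndp was at 0.28 after normexp and loess and at 0.29 without replicate 2. In the authors' deposited table Wnt10a, Wnt2 and Wnt4 have log2 ratios of -0.73, -0.52 and -0.49, again sign-turned.

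Among 15 Wnt antagonists tested (Dkk4 was too dim), 11 were above 0 and 4 below (median 0.08). These are secreted proteins, except for Kremen1 and Kremen2, which sit in the cell membrane. At p under 0.05, 3 antagonists were higher and 1 was lower, against 4.14% higher and 1.95% lower over all named genes. Frzb, a decoy that binds Wnts as Frizzleds do, averaged 0.55 ± 0.28 (limma p 0.00631). Notum, which removes the lipid from Wnts, averaged 0.59 ± 0.39 (limma p 0.0112), and its replicate 2 stood at 1.15. Kremen2, a partner of Dkk proteins, averaged 0.42 ± 0.19 (limma p 0.0093). Sfrp1, another Frizzled-related decoy, averaged -0.28 ± 0.11 (limma p 0.0244; SD, n = 4 each). After normexp and loess Notum was at 0.35, Kremen2 at 0.22 and Sfrp1 at -0.16.

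Among 10 genes of Frizzled turnover, 7 were above 0 and 3 below (median 0.12), with 1 higher and 0 lower at p under 0.05, against the same 4.14% and 1.95% over all named genes. That gene was Rnf43, a ubiquitin ligase that removes Frizzleds from the cell surface. It had ratios of 0.59, 0.51, 0.73 and 0.58 and averaged 0.61 ± 0.09 (SD, n = 4; limma p 0.000631, adjusted p 0.229), above 0 on 8 of 8 arrays. Of 10 co-receptors and alternative receptors, 7 were above 0 and 3 below (median 0.05), and 0 were at p under 0.05 in limma. Of 14 Dishevelled and planar polarity genes, 10 were above 0 and 4 below (median 0.10), and of their brightest probes that of Invs alone was at p under 0.05 (0.24 ± 0.11, SD, n = 4; limma p 0.0474), a ratio of 0.07 after normexp and loess. Daam2, a formin that binds Dishevelled, was read by 3 probes that disagreed. Its brightest stood at -0.01, and A_52_P412674, named here after its value was seen, at -0.59 ± 0.35 (SD, n = 4; limma p 0.00805, adjusted p 0.614). In the authors' deposited table Daam2 has a log2 ratio of 0.59, the sign-turned value of A_52_P412674. Over the 71 pathway genes 11 were at p under 0.05, against 6.08% of the brightest probes of all named genes, and none passed the adjusted threshold. Without replicate 2 there were 15. The share of all probes at p under 0.05 was then 7.93%, against 6.01% with all replicates. Over all named genes 58.4% of brightest probes were above 0.

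Markers of cell types in the kidney moved beside these values. These lists, like the pathway lists, were chosen with earlier results of these data known. Their counts therefore describe the lists and do not test them. Of 20 markers of the ureteric bud epithelium, 18 were above 0 (median 0.60 on the log2 scale), and 15 were higher and 0 lower at p under 0.05, against 4.14% higher and 1.95% lower over all named genes. Their summed signal ranged from 82640 to 153800 in the labelled mutant RNA and from 58220 to 86580 in the labelled wild type RNA. Within replicates the log2 ratio of the sums was 0.68, 0.51, 0.79 and 0.85, so it was above 0 in each, as for A_52_P203560 of Fzd10. Of the ligands, Wnt11, Wnt7b and Wnt9b are themselves on that list, with mean log2 ratios of 0.424, 0.214 and -0.125 (limma p 0.00907, 0.0856 and 0.664). Macrophage markers were above 0 in 2 of 12 (median -0.26), with 1 higher and 4 lower at p under 0.05. Their summed signal ranged from 6995 to 8674 in the labelled mutant RNA and from 8569 to 9935 in the labelled wild type RNA, and its log2 ratio was -0.29, -0.29, -0.23 and -0.20 in replicates 1 to 4. Neuronal and neural crest markers were above 0 in 3 of 10 (median -0.07), with 0 higher and 2 lower. Their sums were 10400 to 16320 in the labelled mutant RNA and 16310 to 19100 in the labelled wild type RNA, with log2 ratios of -0.27, -0.66, -0.28 and -0.19. Stromal markers were above 0 in 4 of 12 (median -0.08), with 1 higher and 3 lower. Their sums were 139300 to 234600 in the labelled mutant RNA and 148700 to 276900 in the labelled wild type RNA, with log2 ratios of -0.08, -0.09, -0.17 and -0.24. Nephron progenitor markers were above 0 in 2 of 12 (median -0.10), with 0 higher and 1 lower. Their sums were 55700 to 92630 in the labelled mutant RNA and 56790 to 103100 in the labelled wild type RNA, with log2 ratios of -0.19, -0.03, -0.08 and -0.16. The log2 ratios of these 4 sums were thus below 0 in each replicate, where that of the bud markers was above it. Endothelial markers were above 0 in 11 of 13 (median 0.06), with 1 higher and 0 lower, and their summed signals ranged from 33470 to 52830 in the labelled mutant RNA and from 29740 to 52310 in the labelled wild type RNA, with ratios of either sign. Erythroid markers were above 0 in 2 of 9 and muscle markers in 4 of 8, with 0 at p under 0.05 by limma, and the ratios of their sums also had either sign. The part of these cell types in the Frizzled ratios was not tested.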

How the data were processed

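Kidney RNA of 4 labelled mutant and 4 labelled wild type samples was measured on 8 two-colour arrays. Per the file headers, Feature Extraction 10.5.1.1 turned the authors' scans into spot values. For each spot the deposited log10 ratio is red over green processed signal, background-subtracted and dye-normalized within each array, per the file headers. The deposited intensity columns hold processed signals and the median brightness of spot and background, the deposited flags (0 or 1, of no other unit) mark spots above background, saturated or outlying, and the authors' deposited table holds log2 ratios. The files hold no mean signals, so median signals entered normexp. Signals were not normalized between arrays.

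The log10 ratios were converted to log2, turned to labelled mutant over labelled wild type, and averaged over the 2 dye orientations of a replicate. Each array had 45018 spots, of which 1639 were controls and were left out. Spots flagged as outliers were left out, a replicate needed both orientations, and no spot was saturated. The filter asked that either channel be well above background on 4 or more of the 8 arrays and that the probe be measured in at least 3 replicates, which left 39522 of 41174 probes. Replicate ratios were tested against 0 with limma 3.58.1 in R 4.3.3 (lmFit and eBayes, two-sided), with Benjamini-Hochberg adjustment over these probes. The p-values measure the spread between samples that the labels call biological replicates. The 2 RNAs of a replicate share their arrays, so each ratio is paired by hybridisation. Between 82.1% and 95.9% of probes per array were well above background in the labelled mutant channel, and between 79.2% and 97.1% in the labelled wild type channel; the number of arrays limits the precision.

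Symbols came from the RefSeq table of GRCm38.p6 for 25097 probes. The array design cites another build, so no probe positions are given. Named genes are all Frizzled genes, pathway genes whose brightest probe had an unadjusted p under 0.05, and the 3 probes most like each Fzd4 and Fzd10 probe. Wnt7b and Wnt9b are named as ligands that are also bud markers. The members and lists were chosen with earlier results of these data known. Alternatives were background correction, centring, filters, probe choice, replicate block, weights, slide, replicates left out and dye orientation. The fit was tested on simulated data.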

Additional observations from a re-analysis of the deposited data

Results flagged for a closer look

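In 4 of 20 sets of 4 replicate values checked, 1 replicate lay far from the other 3, by a test that chance meets in about 1 set in 20 (Dixon's test). In each it was replicate 2. Its log2 ratio, labelled mutant over labelled wild type, was 0.49 for A_52_P168231 of Fzd3, -1.07 for A_51_P166456 of Fzd5 and -0.57 for Fzd6. The difference between the 2 Fzd5 probes was 1.67 in replicate 2. These sets are not independent, since they share the arrays of replicate 2. The spread of that replicate's arrays and of its labelled wild type RNA is given with the results, and their part in these values was not tested.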

How the results depend on the processing

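The mean log2 ratio of A_52_P203560 of Fzd10 kept its sign under all 18 alternatives, and that of Fzd4 did too. The filters, the choice of the brightest probe, the replicate block with or without a dye term, and slide as a block left both means unchanged. They change only the probes tested or the variance, so only the other alternatives could turn a sign. The adjusted limma p of the Fzd10 probe passed the threshold under 3 of the 18 alternatives. With the replicate block on 8 arrays it was 0.0169 at a ratio of 0.71, with the block and a dye term, chosen after seeing the data, 0.0164 at 0.71, and with array weights 0.0249 at 0.63. Each of these called 1 Frizzled probe, against 0. Of all probes, 133 were called with the replicate block, 98 with the dye term, 462 with array weights, 1 with normexp and loess at either offset, 2 without the filter, 14 with probes above background on 8 of 8 arrays, 2 with the brightest probe per gene, 1 with slide as a block, 0 within slide 1, 452 within slide 2, 1 with the labelled mutant in Cy5 only and 36 in Cy3 only, against 7. Leaving out 1 replicate gave 0 to 10 calls. At p under 0.05 there were 7457 probes with weights (3686 higher and 3771 lower), 750 within slide 1, 4665 within slide 2 and 6086 in Cy3 only, against 2375, and 912 to 3135 with 1 replicate left out. Frizzled probes at p under 0.05 numbered 5 with weights (3 higher and 2 lower), 3 with normexp and loess (2 higher and 1 lower), 1 with centring, 1 with slide as a block and 1 within slide 1, against 2, and 1 to 3 with 1 replicate left out, 1 without replicate 1 and 1 without replicate 3. Pathway genes at p under 0.05 numbered 17 with weights and 2 within slide 1, against 11, and 7 to 15 with 1 replicate left out. The median Frizzled log2 ratio was 0.053 with normexp at an offset of 50, 0.0607 at 16, 0.0921 centred, 0.154 with the brightest probes, 0.167 within slide 1, 0.0688 within slide 2, 0.0419 in Cy5 only and 0.0385 in Cy3 only, against 0.129, and 0.051 to 0.15 with 1 replicate left out.

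Means near 0 turned sign. Fzd1 was at -0.0396 and -0.0398 with normexp at offsets of 50 and 16, -0.0339 centred, -0.0253 with weights, -0.0415 within slide 2, -0.0906 in Cy5 only, and -0.0251 (without replicate 1) to 0.0236 with 1 replicate left out. A_51_P233367 of Fzd10 was at 0.167 within slide 1 and -0.195 to 0.0978 (without replicate 4) with 1 left out. A_51_P166456 of Fzd5 was at 0.118 with weights, 0.116 within slide 2 and -0.28 to 0.134 (without replicate 2) with 1 left out. Fzd6 was at -0.0894 within slide 1, A_51_P142107 of Fzd7 at 0.011 in Cy5 only, and A_52_P552665 of Fzd7 at -0.0153 within slide 2, -0.0144 without replicate 3 and -0.0367 (without replicate 1) to 0.15 with 1 left out. Fzd8 was at 0.082 within slide 2 and -0.265 to 0.0604 (without replicate 2) with 1 left out. The difference between the Fzd3 probes was -0.157 in Cy3 only. That between the Fzd5 probes was -0.0973 within slide 2 and -0.102 (without replicate 2) to 0.523 with 1 left out. The causes were not tested.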
